A study of Drosophila melanogaster with 4 samples.

Results

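Broad GAF domains are the regions of GAGA factor (GAF) enrichment that span 5000 bp or more in the authors' combined list for the 2 ChIP replicates. They were chosen by width, and by lying on chromosome arm 2L, 3L or 3R, on X or on chromosome 4. The rule gave 311 domains out of 5083 enriched regions, called clusters here, on these 5 sequences (6.12%), and out of 6474 clusters in the whole combined list. The other 4772 clusters of the same sequences are the set against which the domains are described.

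GAF is a DNA-binding protein of Drosophila encoded by the gene Trl. Its zinc finger recognises GA-rich DNA, and its BTB/POZ domain lets GAF molecules associate with each other, so that neighbouring GA-rich elements can be bound together. The protein is known for keeping promoters free of nucleosomes, for its presence at heat shock and homeotic genes, and for its link to Polycomb response elements.

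GAF-bound chromatin was collected by ChIP-seq, that is, immunoprecipitation of formaldehyde-crosslinked chromatin followed by sequencing. The embryos were of the wild-type strain Oregon-R of the fruit fly and had developed for 14 to 16 hours. There were 2 GAF ChIP replicates and 2 input libraries of the same strain and age. Both kinds of library came from whole embryos, so a domain may be bound in some cells and not in others. No source used here ties the replicates to separate collections of embryos, so their spread may be technical, and the inputs were not analysed here. The files give no read counts, so the depth behind a domain is unknown.

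Most domains were only somewhat wider than the limit. The median width was 6096 bp, from 5002 to 22116 bp, against a median of 2172 bp in the other clusters. Of the 311 domains, 144 were under 6 kb, 93 lay between 6 and 7.5 kb, 43 between 7.5 and 10 kb, and 31 spanned 10 kb or more. Together they covered 2.15 Mb, which is 15.8% of all cluster length on the 5 sequences and 2.17% of the sequences themselves. Width chose the domains, so these widths are a description.

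The limit of 5000 bp marked no visible break. The narrowest domain, on X from 6492259 to 6497260, was 5002 bp wide and scored 2.84. Next came a pair of X domains of 5009 bp, from 509392 and from 5408590, with scores of 1.98 and 3.61. Just below the limit were 3L clusters of 4992 bp from 17939465, with a score of 0.83, and of 4990 bp from 3057409, with a score of 2.71, and a 2L cluster of 4985 bp from 19163013, with a score of 2.82. The 58 domains less than 250 bp above the limit had a median score of 2.62, and the 59 clusters up to 250 bp below it had one of 2.65.

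Each region carries a score given by the authors, on a scale that no source used here explains. Scores are therefore compared by median, rank or difference and never as folds. The domains had a median score of 2.92, from 0.17 to 5.38, against 0.99 in the other clusters. By score, 232 of the 311 domains (74.6%) stood in the highest 25% of all clusters, and 124 (39.9%) in the highest 10%. Width and score come from the same measurement, so nothing is tested here.

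The rise of the score with width slowed well below the domains but did not end there. Over all 5083 clusters Spearman's rho between width and score was 0.81, but within the 311 domains it was 0.15, and within the 1506 clusters of 2.5 to 5 kb it was 0.08. Over the 1817 clusters of 2.5 kb or more it was 0.19. By width class, the median score was 0.23 under 2 kb, 1.17 from 2 to 2.5 kb, 2.22 from 2.5 to 3 kb, 2.13 from 3 to 4 kb, and 2.55 from 4 to 5 kb. Among the domains it was 2.72 from 5 to 6 kb, 2.97 from 6 to 7.5 kb, 3.11 from 7.5 to 10 kb and 3.12 at 10 kb or more. The steep part of the relation thus lay around 2 to 2.5 kb, where rho was 0.73 over 1820 clusters. The replicate lists, taken alone, gave a rho of 0.13 in replicate 1 and 0.12 in replicate 2 over their own clusters of 5 kb or more, and of 0.76 and 0.77 from 2 to 2.5 kb. These correlations run across clusters that share libraries and neighbours, so they carry no p-value.

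**Figure D1:**
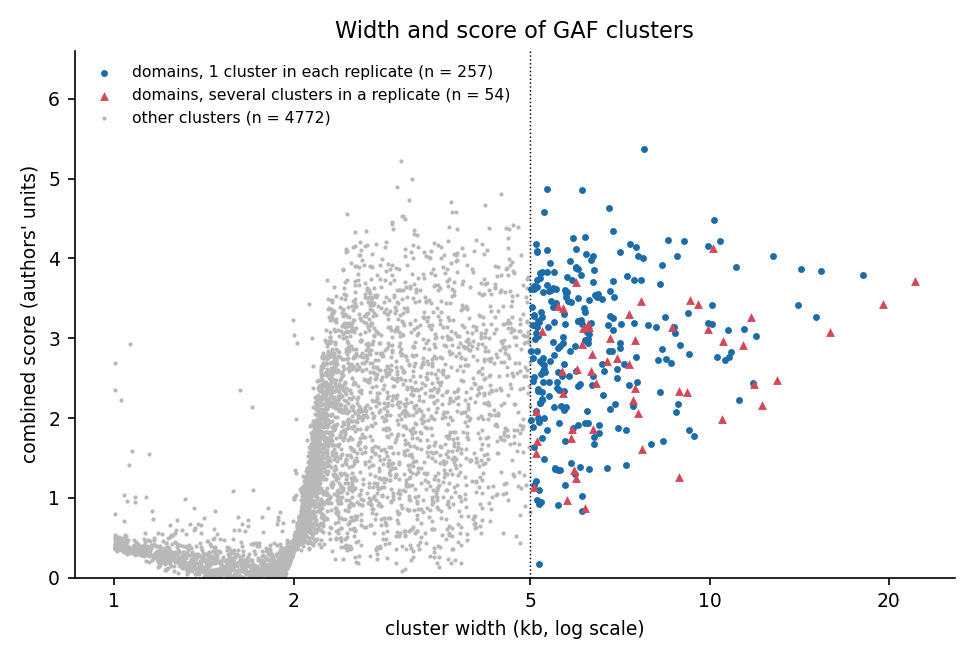
Width (kb, log scale) and combined score (authors' units) of each of the 5083 GAF clusters on 2L, 3L, 3R, X and 4. Blue points are the 257 domains with 1 cluster in each replicate, red triangles the 54 domains with several clusters in a replicate, grey points the 4772 other clusters, and the dotted line the limit of 5 kb. The cloud climbs steeply near 2 kb and only slowly at greater widths.

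High scores were also found at narrower regions. Of the 10 highest-scoring clusters, 3 were domains, and of the 100 highest, 28 were. The highest-scoring cluster of all was a domain of 7.76 kb on 3L from 14746843 to 14754601, with a combined score of 5.38 and scores of 5.51 in replicate 1 and 5.25 in replicate 2. The highest among the narrower clusters, 3032 bp wide on 3R from 8292248 to 8295279, reached 5.22.

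The other leading domains were between 5.27 and 10.2 kb wide, and most had similar scores in the replicates. A 3R domain from 25596315 to 25601641 scored 4.94 in replicate 1 and 4.83 in replicate 2. A 3L domain from 21015438 to 21022213 scored 4.74 and 4.52 in the same order, and a 3R domain from 5242271 to 5247538 scored 4.63 and 4.57. The leading domain of X, from 7583800 to 7593959, was 10.2 kb wide and scored 4.48 ± 0.07 (mean ± SD, n = 2), and that of 2L, from 11803527 to 11810405, scored 4.34 ± 0.01 (SD, n = 2). The gap between these last domains exceeded their replicate spread, whereas the domains on X from 412971 to 419138 (4.29 ± 0.08) and on 3L from 9684241 to 9692755 (4.24 ± 0.08) differed from each other by less than it (SD, n = 2 each). Completing the 10 highest by combined score were 3R domains from 26211384 to 26217270 and from 8298868 to 8304963, the last described below with its replicates. The domain from 26211384 had a combined score of 4.26, below both its replicate scores of 4.55 and 4.33 (4.44 ± 0.15, SD, n = 2).

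A few domains were broad but weak. In 9 of the 311 (2.89%) the score lay below the median of all clusters. The lowest was on 2L from 21377208 to 21382377, with a combined score of 0.17 and replicate scores of 0.14 and 0.24, although each replicate had a cluster of about its full width there (4943 and 5232 bp). The next 4 scored 0.83 on 3L from 16137567, 0.88 on 3L from 14624837, 0.91 on X from 2247384 and 0.92 on 2L from 20349607.

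Domains were most frequent on X. X held 98 domains, or 4.37 per Mb, against 3.15 on 3R (88 domains), 2.73 on 3L (67), 2.39 on 2L (55) and 2.22 on chromosome 4 (3). The replicate lists, by their own clusters of 5 kb or more, had 3.52 and 3.43 per Mb on X, 2.58 and 2.76 on 3R, 2.36 and 2.49 on 3L, 2.17 and 2.09 on 2L, and 2.22 in both on chromosome 4 (replicate 1, then 2). X stood above every other sequence in both replicate lists by more than the spread between replicates (3.48 ± 0.06 per Mb on X, 2.67 ± 0.13 on 3R; SD, n = 2). The combined list had 98 on X where the replicates had 79 and 77, and 55 on 2L where they had 50 and 48.

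Set against the number of clusters of any width, the sequences differed less. As a share of all clusters of the sequence, domains made up 7.41% on X (exact Clopper-Pearson 95% binomial interval 6.06 to 8.96%), 6.12% on 3R (4.94 to 7.49%), 5.45% on 3L (4.25 to 6.87%), 5.31% on 2L (4.03 to 6.86%) and 5.08% on chromosome 4 (1.06 to 14.1%). These intervals overlap, cover counting error only and treat clusters as independent. In the replicates the share on X was 6.71% and 6.77%, above the 3R shares of 5.63% and 5.90%. Domains covered 3.10% of X and between 1.62% and 2.18% of each of the other 4 sequences. Median scores differed little, from 2.89 on 3R to 3.03 on 2L, except for 2.17 over the 3 domains of chromosome 4.

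**Figure D2:**
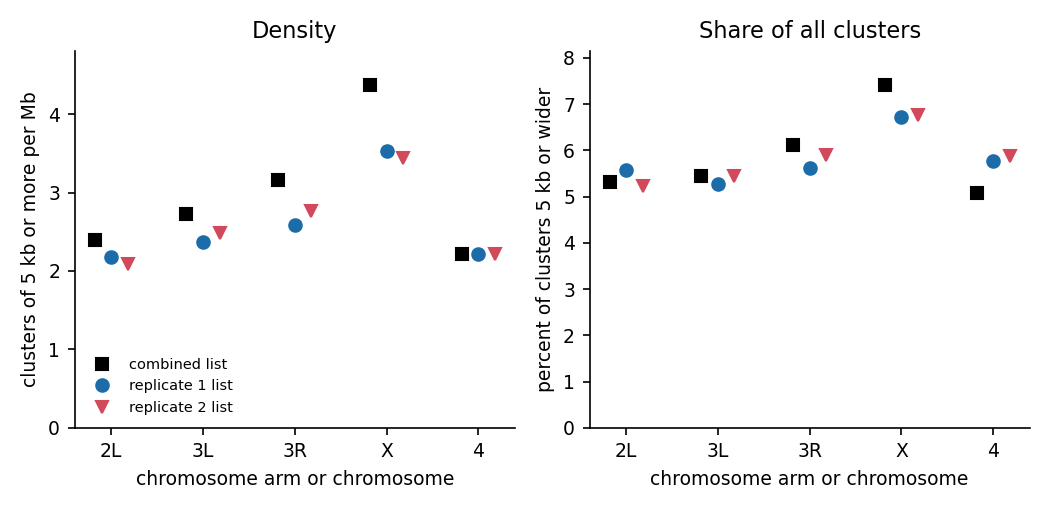
Clusters of 5 kb or more per Mb (left) and as a percent of all clusters (right) on each of the 5 sequences, in the combined list (black squares) and in each replicate list (blue circles and red triangles). X is highest in both panels in all 3 lists, and the 3 domains of chromosome 4 make its values the least certain.

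Chromosome 4, a small and largely heterochromatic chromosome, held a domain of 5707 bp from 473753 to 479459, scored 1.18 ± 0.09 (SD, n = 2). A second, of 6929 bp from 951433 to 958361, scored 2.19 ± 0.03 (SD, n = 2). The widest, of 9267 bp from 521113 to 530379, had a combined score of 3.48; replicate 2 had it whole at 3.56, and replicate 1 as 2 clusters at 3.39 and 3.43. All 3 stood alone, with the nearest other cluster between 17481 and 19756 bp away.

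Along the arms, domains were sparse in the 2 Mb nearest the centromere and otherwise lay in most bins of 1 Mb, in uneven numbers. In those 2 Mb there were 3 domains on X (1.5 per Mb, against 4.65 in the rest of X), 4 on 3R (2.0 against 3.24), 2 on 2L (1.0 against 2.52) and 1 on 3L (0.5 against 2.93). Clusters of any width were also fewer on X, 2L and 3L, but not on 3R, in the complete bin nearest the centromere. That bin held 30 clusters on X, 26 on 2L, 24 on 3L and 59 on 3R. The next bin held 49, 59, 42 and 56 in the same order, so on 2L the low count did not extend over the 2 Mb. The whole sequences held 1322 in 22.4 Mb, 1035 in 23.0 Mb, 1230 in 24.5 Mb and 1437 in 27.9 Mb in the same order. The share of these clusters that were broad was not computed near the centromere. Over whole arms the domains showed no common trend. The centromere-side part, when the arm is cut at its midpoint, held 36 domains against 62 in the outer part on X, 53 against 35 on 3R, 32 against 35 on 3L and 19 against 36 on 2L. Of the 97 complete bins of 1 Mb, 14 held 6 or more domains and 7 held none, with a median of 3. The fullest was X from 1 to 2 Mb, with 12 domains among 77 clusters and 11 and 10 broad clusters in the replicates. Next came 3R from 5 to 6 Mb and X from 7 to 8 Mb with 9 domains each. The longest stretch without a domain was 2.35 Mb of 2L from 13553811 to 15907855, where 67 narrower clusters lay, followed by 1.96 Mb of 3L from 5840257 to 7800371 with 77 narrower clusters.

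Neighbouring domains at most 25 kb apart, a distance chosen after the gaps were seen, formed 42 groups with 102 domains. X held 17 of the groups, with 45 of its 98 domains (45.9%), against 24 of 88 on 3R (27.3%), 20 of 67 on 3L (29.9%) and 13 of 55 on 2L (23.6%). These shares do not hold density equal: X had 4.37 domains per Mb, against 3.15 on 3R, 2.73 on 3L and 2.39 on 2L. The largest group by number lay on X from 1832825 to 1947347, where 7 domains and 6 narrower clusters stood within 115 kb and clusters covered 57.7% of the sequence. Domain scores there ran from 1.67 to 3.33. A second group of X, from 3565116 to 3676298, held 5 domains with 58.2 kb in all and scores from 2.45 to 4.22. On 3R from 12046121 to 12108607 there were 5 domains and no narrower cluster, and domains covered 75.3% of the 62.5 kb.

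Whether domains adjoin each other was measured by the gap between their ends. A majority stood alone: the median gap to the nearest other domain was 66.2 kb, and 277 of the 311 had no other domain within 5 kb. The remaining 34 (10.9%, exact binomial interval 7.69 to 14.9%) formed 16 runs, 15 of them pairs. X had 9 runs with 18 of its 98 domains, 3L had 4, 3R had 2, 2L had 1 and chromosome 4 had none. No other cluster lay in the gap in 15 of the 18 neighbouring pairs.

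The longest run was on 3R, with 4 domains end to end from 12046121 to 12082981. They were 6253, 10773, 7088 and 11207 bp wide, were separated by 1292, 208 and 40 bp, and filled 95.8% of 36.9 kb. Their replicate scores were 3.12 ± 0.04, 2.78 ± 0.21, 3.19 ± 0.03 and 2.24 ± 0.04 in map order (SD, n = 2 each). The last of them was lower than each of the first 3 by more than the replicate spread.

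The closest pairs nearly touched. On X, domains of 8883 and 8919 bp from 10622135 to 10639969 were 33 bp apart, with combined scores of 2.34 and 2.91, and the first of them held 2 clusters in each replicate. Another X pair, from 3565116 to 3592168, was 43 bp apart, with scores of 4.02 ± 0.18 and 3.86 ± 0.10 (SD, n = 2 each), which differ by less than the larger SD. A 3L pair from 625000 to 636850 was 446 bp apart, yet its combined scores were 3.06 and 0.98. Thus adjoining domains could differ widely: over the 18 pairs the absolute difference in combined score had a median of 0.58 and ran from 0.16 to 2.17. The widest difference was on X from 2176002 to 2203921, where a domain scored 1.61 and its neighbour, 2091 bp away, 3.79.

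In both replicates every one of these 18 pairs was also separated. No replicate cluster reached across a gap (0 of 18, which allows up to 16.7%). The gap was wider than in the combined list in 15 pairs in replicate 1 and in all 18 in replicate 2. For the 33 bp gap on X the replicates had 9 and 352 bp, for the 40 bp gap on 3R 95 and 85 bp, and for the 43 bp gap on X 44 and 164 bp. The breaks between adjoining domains were thus present in each library's own list. Since the combined list was made from the same libraries, this is a description.

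Other runs of the 10 largest by number and summed width were pairs on X from 7583800 to 7605570 (21.3 kb in domains), on 3R from 9834897 to 9854112 (18.2 kb), on 2L from 468033 to 489308 (17.4 kb), on X from 1832825 to 1848485 (14.7 kb), on 3L from 19887214 to 19904435 (14.3 kb) and on X from 8302433 to 8317319 (12.7 kb).

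Domains also had nearer neighbours of any width than other clusters did. The gap to the nearest other cluster had a median of 2428 bp for domains and 3910.5 bp for the others. Within 1 kb, 103 of the 311 domains (33.1%) had another cluster, against 21.1% of the other clusters and 21.8% of all clusters. Within 5 kb it was 215 (69.1%), against 56.7% of the others and 57.4% of all. A median of 4 clusters lay within 25 kb of a domain's ends, against 3 for the other clusters. Narrower clusters within 5 kb of a domain had a median score of 1.15 (285 clusters), and those further than 25 kb had one of 0.98 (3841 clusters).

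**Figure D3:**
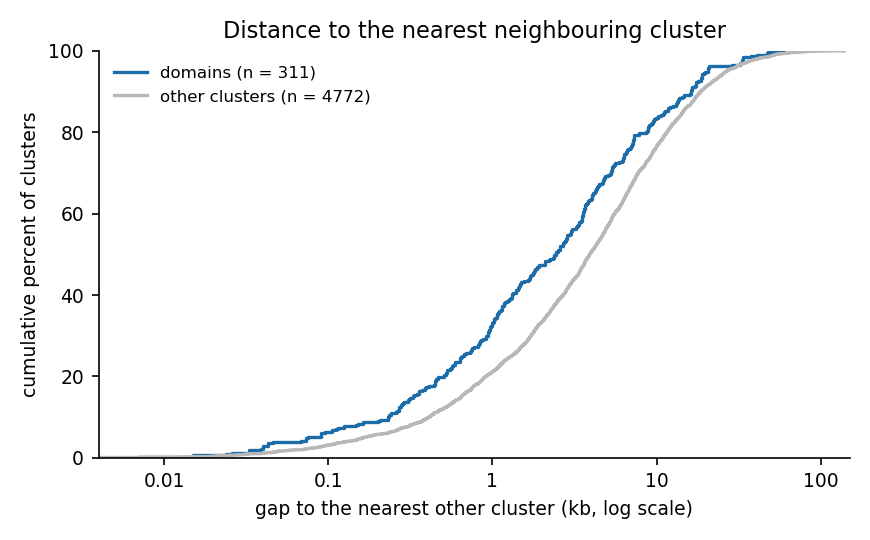
Cumulative percent of clusters by the gap to the nearest other cluster (kb, log scale), for the 311 domains (blue) and the 4772 other clusters (grey). The curve of the domains lies above that of the others over most of the range, with 33.1% against 21.1% at 1 kb.

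Each replicate had a cluster at every domain. In 257 of the 311 domains (82.6%, exact binomial interval 78.0 to 86.7%) each replicate had exactly 1 cluster, against 78.9% of all clusters on the 5 sequences. No domain lacked a cluster in a replicate (0 of 311, which allows up to 0.965%), against 981 of the 4772 other clusters and 19.3% of all. Those 981 were narrow and low in score, with medians of 1471 bp and 0.23, and the comparison does not hold width or score equal. The remaining 54 domains (17.4%, interval 13.3 to 22.0%) held several clusters in at least 1 replicate, against 39 of the other clusters (0.82%) and 1.83% of all. Wider regions have more room for several clusters: the share was 13.9% of the 237 domains under 7.5 kb, 23.3% of the 43 from 7.5 to 10 kb and 35.5% of the 31 of 10 kb or more.

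Replicate 1 broke up 37 domains (11.9%) and replicate 2 broke up 30 (9.65%). Several clusters were present in replicate 1 alone in 24 domains, in replicate 2 alone in 17 and in both in 13. Where both were broken, the breaks coincided: in all 13 domains a gap of replicate 1 shared at least 1 bp with a gap of replicate 2, and 14 of the 15 gaps of replicate 1 did so. Most gaps were short. Over all broken domains, replicate 1 had 42 gaps with a median of 130.5 bp and replicate 2 had 32 with a median of 351.5 bp. Of these, 18 and 10 were under 100 bp, and 3 and 6 exceeded 1 kb.

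The clusters inside a broken domain often had very different scores. The difference between the highest and the lowest had a median of 1.56 in replicate 1 (37 domains) and 1.39 in replicate 2 (30 domains). The combined score of the domain lay between those of its clusters in 35 of the 37 and in 25 of the 30. It ran parallel to their mean weighted by width (Spearman's rho 0.95 and 0.96 across these domains, with a median difference, combined minus weighted mean, of 0.14 and 0.17). Broken domains had a median combined score of 2.65 and those with 1 cluster in each replicate had one of 2.97.

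The widest domain, 22.1 kb on 2L from 16266510 to 16288625, was broken most. Replicate 1 held 3 clusters there, scoring 3.70, 1.57 and 4.13 in map order, and replicate 2 held 4, scoring 3.99, 1.67, 2.11 and 4.63. In both replicates the ends were high and the middle low. The next in width, 19.5 kb on 3R from 27533801 to 27553348, showed the same break in both: a cluster of 2.46 kb in replicate 1 and 2.45 kb in replicate 2, with scores of 1.01 and 0.95, preceded a long one scored 3.68 in each. A 3L domain of 10.1 kb from 10727081 to 10737221 likewise had 2 clusters per replicate, at 4.44 and 2.55 in replicate 1 and at 4.41 and 2.43 in replicate 2.

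Replicates did not always break a domain alike. On 3L from 542055 to 551992, replicate 1 had 3 clusters at 3.83, 0.40 and 1.56, where replicate 2 had a continuous cluster at 3.11. On 3L from 15093647 to 15102812, replicate 1 had 3 clusters at 1.83, 3.17 and 0.85, and replicate 2 had 2 at 2.67 and 0.76. On 3L from 746821 to 752958, both had a high cluster (3.66 and 3.82) followed by a low one (0.65 and 1.07).

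**Figure D4:**
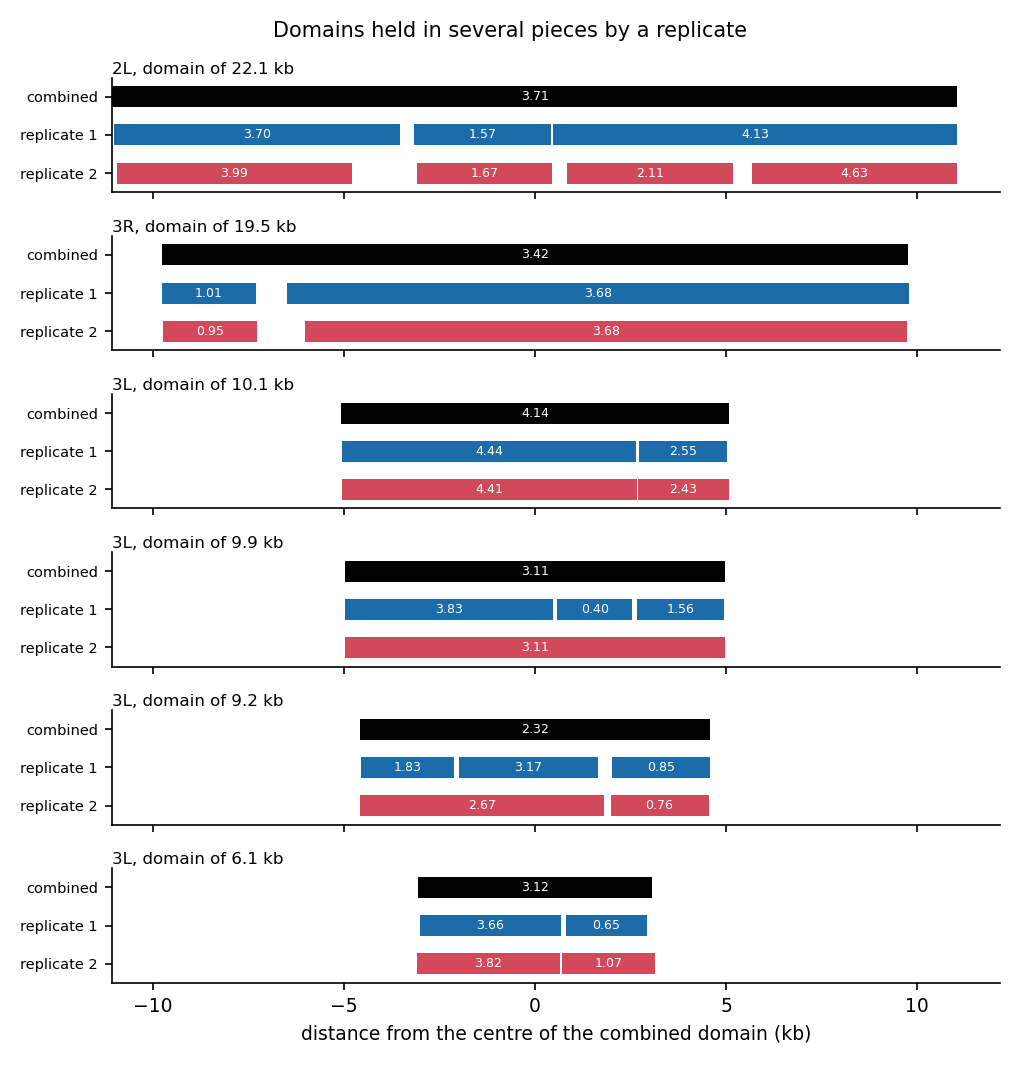
Layout of the 5 domains with the most replicate clusters (ties broken by arm and position) and of the second widest, by distance from the centre of the combined domain (kb). Black bars are the combined domain, blue bars the clusters of replicate 1 and red bars those of replicate 2, each with its score; a gap of replicate 1 meets a gap of replicate 2 in 5 of the 6, and the 9.9 kb domain on 3L is whole in replicate 2.

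Very wide domains were not always broken. On X, the domain of 18.1 kb from 2185797 to 2203921 was 18091 and 18112 bp wide in the replicates, and that of 15.4 kb from 3630948 to 3646341 was 15341 and 15272 bp wide, with scores of 3.77 and 3.93. On 2L, the domain of 14.1 kb from 5970464 to 5984568 was 14098 and 14042 bp wide, with scores of 3.47 and 3.36. The SD of their width between replicates was 14.8, 48.8 and 39.6 bp (n = 2 each). The domain of 15.1 kb on 3L from 17956956 to 17972064 was 14931 bp wide in replicate 2. In replicate 1 it was part of a cluster of 19593 bp that also took in a neighbouring combined cluster, an arrangement found at 4 domains. Among the 10 widest, 2 more were broken in replicate 1 alone: the 16.0 kb domain on 3R from 17449478 to 17465441 had 2 clusters in replicate 1 and 1 in replicate 2, and the 13.0 kb domain on 3R from 9834897 to 9847884 had 3 and 1.

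Where each replicate had a single cluster of its own, 254 domains in all, the replicates placed and scored it alike. The ends differed by a median of 29 bp, against 27 bp in 3739 other clusters, and 82.3% of the ends agree within 100 bp, against 84.7%. Ends more than 1 kb apart made up 3.35% of those of domains and 1.20% of those of the others. The spread of a domain's width between replicates was 312 bp (within-domain SD, n = 2), against 200 bp in the other clusters. The spread of its score was 0.14, against 0.20 in the other clusters. Replicate 2 scored higher at 134 of the 254 domains. Spearman's rho between the replicates was 0.97 for the score and 0.94 for the width, across domains of the same 2 libraries.

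**Figure D5:**
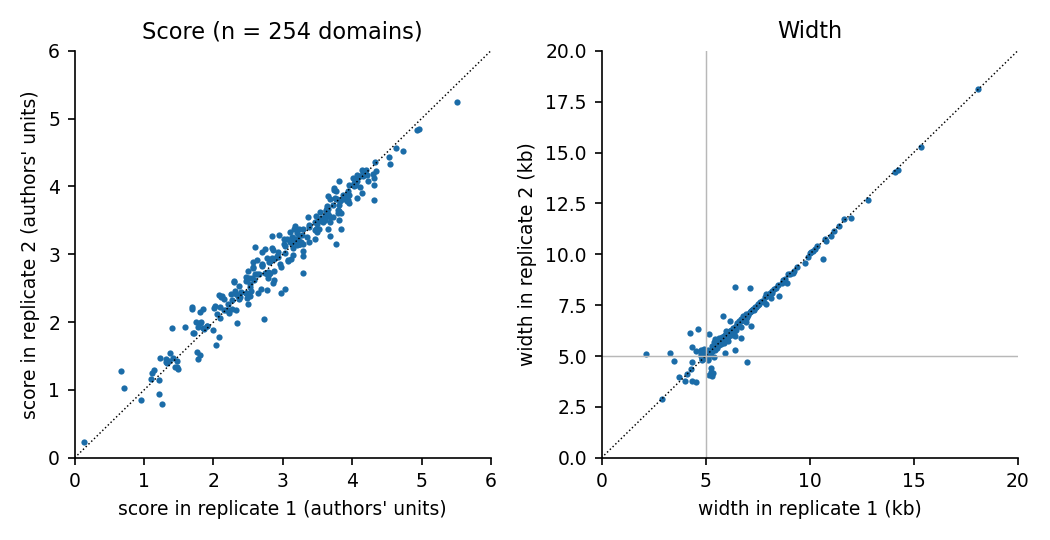
Score (left, authors' units) and width (right, kb) in replicate 1 and replicate 2 of the 254 domains with a cluster of their own in each; dotted lines mark equal values and grey lines 5 kb. Points follow the dotted lines in both panels, where Spearman's rho was 0.97 and 0.94, and a few points stand far off the line in width.

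At the domains, the replicates' own clusters were not always broad. Some shortfall follows from the rule, which chose the domains by their width in the combined list. Over all clusters of each list, 5.81% in replicate 1 and 5.87% in replicate 2 were broad, against 6.12% in the combined list. Where each replicate had a single cluster of its own, the combined cluster was wider than both at 70.9% of domains and 68.6% of other clusters. At 234 of the 311 domains (75.2%) both replicates had a cluster of 5 kb or more, at 25 replicate 1 alone did, at 26 replicate 2 alone did, and at 26 neither did. Domains broad in both replicates had a median combined score of 3.04, and those broad in neither had one of 2.16. The widest of the 26 was on X from 2176002 to 2183705, of 7704 bp, with 2 clusters in each replicate.

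Replicate clusters covered 96.7% of the summed domain length in replicate 1 and 96.1% in replicate 2. Coverage fell below 75% of the domain in 7 domains in replicate 1 and in 9 in replicate 2, and it did so in both replicates in 1 domain alone. That domain, on 3R from 8298868 to 8304963, scored 4.85 and was 6096 bp wide, but the replicates had clusters of 2895 and 2875 bp there, scored 4.96 and 4.85, both starting within 1 bp of 8302065. The lower-coordinate part of the domain lay in no replicate cluster, yet the combined score lay between the replicate scores. The domains on 2L from 9912300 to 9917359 and on 3L from 22395212 to 22402522 differed between replicates instead. In the first, replicate 1 had 2144 bp and replicate 2 had 5098 bp. In the second, replicate 1 had clusters of 3176 bp at 0.40 and 3853 bp at 4.29, and replicate 2 had only 2682 bp at 4.55.

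Regions called depleted, whose score is below 0, are separate entries of the same list, and none of the 168 on the 5 sequences shared a base with any combined cluster, broad or not. The nearest lay a median of 232 kb from a domain and 195 kb from the other clusters. This distance depends on the list: replicate 1 had only 9 depleted regions and replicate 2 had 6, and their median distances from a domain were 2677 and 5226 kb. Within 5 kb, 5 domains (1.61%) and 1.59% of the other clusters had a depleted region. The closest approach was 102 bp, at the domain on 2L from 6790903 to 6796368.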

How the data were processed

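The 3 deposited region lists hold the enriched and depleted regions of ChIP replicates 1 and 2 and of the combined set. Coordinates are on FlyBase release 5, per the file headers. The submitters' processing notes name Bowtie 0.12.7; the region caller, its thresholds and the way replicates were combined are not named there, in the labels or in the headers. The deposited score is the authors' signed value per region, with no stated scale.

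Clusters of the combined list with a score above 0 and a width of at least 5000 bp on 2L, 3L, 3R, X and 4 were taken as domains. Overlap meant at least 1 bp, gaps are the bases between ends, and neighbours at most 5000 bp apart formed a run. No test was made: width and score chose or share the measurement, and clusters are not replicates. Intervals are exact Clopper-Pearson at 95%. A count of 0 is given with the share that 3 counts would make. Overlap, coverage and gap routines were tested on simulated regions. Work was done in Python 3.11.15 with pandas 2.3.3 and scipy 1.17.1.

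Domains, lists and measures were chosen with earlier results of these data known. The rule for named domains took the 10 widest, the 10 highest and 5 lowest in score, the widest and highest of each sequence, the 5 with the most replicate clusters (ties by arm and start), the 10 largest runs, the 5 closest pairs and 3 on each side of the limit; others named were chosen after their values were seen. The gene table at hand is of release 6, so no domain was assigned to a gene, no sequence is printed, and the planned results on genes and motifs were not computed.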

Additional observations from a re-analysis of the deposited data

How the results depend on the processing

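No paired analysis was possible because the results come from no test and the region lists used here are of the ChIP samples, so the inputs of the same replicate numbers enter no comparison. Changing the width limit changed the number of domains by construction, to 613 at 4000 bp, 74 at 7500 bp and 31 at 10000 bp, against 311. The median score, 2.92, was 2.75, 3.12 and 3.12 at these limits. Replicate scores were taken only over the 257 domains with 1 cluster in each replicate, whose median combined score was 2.97. Over these it was 2.98 from replicate 1 alone, from replicate 2 alone and from their mean. At 7500 and 10000 bp, the share with 1 cluster in each replicate was 71.6% and 64.5% (82.6% as reported), the share with several in a replicate was 28.4% and 35.5% (17.4%), and replicate clusters covered 97.3% and 97.5% of domain length (96.4%). With either replicate left out, the share with several clusters ran from 9.65% to 11.9%, and the coverage from 96.1% to 96.7%. The share of adjoining domains, 10.9%, was 4.82%, 5.79% and 21.5% with gaps of at most 1000, 2000 and 10000 bp, and 32.8% at 25000 bp, chosen after the data were seen.

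Density from the lists of replicates 1 and 2 alone was 2.17 and 2.09 per Mb on 2L, 2.36 and 2.49 on 3L, 2.58 and 2.76 on 3R, and 3.52 and 3.43 on X. Without the 2 Mb nearest the centromere it was 2.52 on 2L, 2.93 on 3L and 4.65 on X. X was highest under each of these. The median distance to a depleted region was 2677 kb and 5226 kb with the few regions of replicates 1 and 2 (9 and 6), against 232 kb. Of the 45 values under an alternative, 11 moved by no more than the replicate spread, the interval or 1.5 times. The coverage with either replicate left out was among these 11 by construction. Its reported value was the mean of the 2 replicate values, and its spread was their SD. The other 34 values moved by more. Apart from the changes of width limit and gap, which act by construction, the cause of the shifts was not tested. Unknown depth limits how firmly a break inside a domain can be read.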

Other observations

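Nearly all broad clusters of the replicate lists met a broad domain of the combined list. Replicate 1 had 262 clusters of 5 kb or more on the 5 sequences, of which 260 (99.2%) overlapped a domain, and replicate 2 had 266, of which 262 (98.5%) did. The other 2 and 4 met a narrower combined cluster. The widest of these was in replicate 2 on 3R from 14916439 to 14923642, at 7204 bp with a score of 1.86, where the combined cluster was 4897 bp wide and that of replicate 1 was 4446 bp. Between the replicates, 89.7% of the broad clusters of replicate 1 and 88.7% of those of replicate 2 met a cluster of 5 kb or more in the other replicate.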
